A study of Rattus norvegicus with 12 samples.

Results

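The microRNAs miR-144 and miR-451 are made from neighbouring hairpins of one gene cluster that is active in developing red blood cells. Their probes, rno-miR-144 and rno-miR-451, were taken by name as 2 of the 420 endogenous rat probes counted in plasma, and the probe rno-miR-23a was added as the denominator of a haemolysis index. Plasma came from 12 female Wistar rats, split evenly into 6 pregnant rats, sampled on embryonic day E14.5, and 6 controls that were not pregnant, and each rat gave 1 sample. Blood was drawn from the heart after death in both groups, cells and platelets were spun out, and RNA from the plasma was counted on the NanoString nCounter, which images a barcoded reporter for each captured miRNA without amplification. All 12 samples were run on a single cartridge, and the labels name no treatment or genetic change for either group. Controls were aged 110 to 269 days and pregnant rats 103 to 373 days.

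In erythroid cells the cluster is switched on by the transcription factor GATA1 as red cells mature, and the mature miRNAs persist in the enucleated cell. Animals that lack the cluster have red cells that are sensitive to oxidative stress. Because a red cell holds so much miR-451, its level in plasma is widely read as a sign of red cell lysis during blood sampling. Its level is then divided by that of a miRNA that red cells contribute little to, commonly miR-23a, to give a haemolysis index.

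The mature sequences are shown because the probes are named without an arm, and because the seed, bases 2 to 8, decides most target pairing. They are RefSeq entries on the rat build GRCr8, written 5′ to 3′ with the seed in capitals.
rno-miR-144-3p: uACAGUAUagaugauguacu
rno-miR-144-5p: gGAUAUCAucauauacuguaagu
rno-miR-451-5p: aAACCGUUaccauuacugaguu
rno-miR-23a-3p: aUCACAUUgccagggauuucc
rno-miR-101b-3p: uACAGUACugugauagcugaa
The seeds of miR-144-3p and miR-451-5p differ from each other, and among 724 mature rat sequences 0 others carry either of them. Bases 2 to 7 of miR-144-3p recur in rno-miR-101a-3p and rno-miR-101b-3p, which part from it at the last seed base. The conventional mature forms are the 3p arm for miR-144 and the 5p arm for miR-451, and which arm each probe captures was not given in the sources used here.

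Both hairpins lie on the plus strand of chromosome 10, Mir144 at chr10:63459397-63459479 and Mir451a at chr10:63459569-63459640, with 89 bases between them. No annotated gene overlaps both. The nearest other genes are Flot2, 13585 bases away on the side of lower coordinates, and Eral1, 133 bases beyond Mir451a on the opposite strand. The hairpins are shown, with the mature form in capitals, because they differ in how they are cut.
Mir144: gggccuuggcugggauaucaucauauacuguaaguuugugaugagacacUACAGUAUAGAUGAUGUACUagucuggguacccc
Mir451a: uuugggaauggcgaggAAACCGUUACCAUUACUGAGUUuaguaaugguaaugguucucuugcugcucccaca
In the predicted fold of Mir144, at -37.5 kcal/mol with 33 base pairs, the mature 3p strand sits within the stem and 0 of its bases lie in the terminal loop. The Mir451a hairpin, at -41.5 kcal/mol with 30 base pairs, has a stem too short for the enzyme Dicer, and its mature strand runs from base 17 to base 38, around all 4 bases of the terminal loop. Its maturation is known to rely on cleavage by Argonaute 2 in place of Dicer.

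Counts were raw and low, and the sum of endogenous counts lay between 6969 and 10176 in controls and between 5163 and 30301 in pregnant rats. Pregnant rats 5 and 6 had the highest sums, 24010 and 30301, and their mean was 3.00 times that of the other 10 rats. They stood apart for both members as well, so the comparisons are given with and without them. Background was set in each rat from 4 exogenous probes for which no spike-in was added, as a stand-in for negative control counts, which were not used here. Its mean ran from 7.25 to 15.75 counts and its mean + 2 SD from 17.9 to 49.1.

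The miR-451 probe was among the brightest in plasma. Control rats 1 to 6 had 408, 137, 459, 723, 217 and 590 raw counts of miR-451, and pregnant rats 1 to 6 had 168, 48, 299, 520, 2529 and 1304. All 12 values were above the background mean + 2 SD. The groups overlapped over the whole control range, with 2 pregnant rats above the highest control and 1 pregnant rat below the lowest.

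By mean raw count miR-451 was at place 3 among the 420 probes, and in individual rats its place ran from 1 to 16. Pooled over rats, it took 5.11% of endogenous counts. Its share ran from 1.36% in control rat 2 to 8.14% in control rat 4, and from 0.930% in pregnant rat 2 to 10.5% in pregnant rat 5. A probe's count also depends on how well it captures its target, so ranks compare probes and not amounts of miRNA.

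In order of raw count the rats ran from pregnant rat 5, through pregnant rat 6, control rats 4 and 6, pregnant rat 4, control rats 3 and 1, pregnant rat 3, control rat 5, pregnant rat 1 and control rat 2, down to pregnant rat 2. Neighbours in this order whose 95% exact Poisson intervals overlapped were control rat 6, pregnant rat 4, control rat 3 and control rat 1 on the one hand, and control rat 5, pregnant rat 1 and control rat 2 on the other. Elsewhere neighbours were separated by more than counting error, which covers the counting alone and not the preparation of each sample. The span from lowest to highest was 52.7-fold among pregnant rats and 5.28-fold among controls.

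The miR-144 probe was far dimmer. Control rats 1 to 6 had 17, 12, 21, 14, 19 and 9 raw counts of miR-144, and pregnant rats 1 to 6 had 13, 7, 18, 15, 143 and 102. The values of 10 rats, all but pregnant rats 5 and 6, lay between 7 and 21, and the exact Poisson intervals of these 10 all overlapped one another. For example, the interval was 2.81 to 14.4 counts in pregnant rat 2 and 13.0 to 32.1 in control rat 3. Pregnant rats 5 and 6, at 121 to 168 and 83.2 to 124 counts, stood clear of them.

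Against the background, miR-144 was above the mean in 10 of 12 rats, above mean + 1 SD in 6 and above mean + 2 SD in 2, which were pregnant rats 5 and 6. In the other 10 rats the probe was thus not separated from the exogenous probes at the strictest level, and differences among them were not detectable at this depth. By mean raw count it was at place 52 of 420, and it took 0.269% of pooled endogenous counts.

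**Figure D1:**
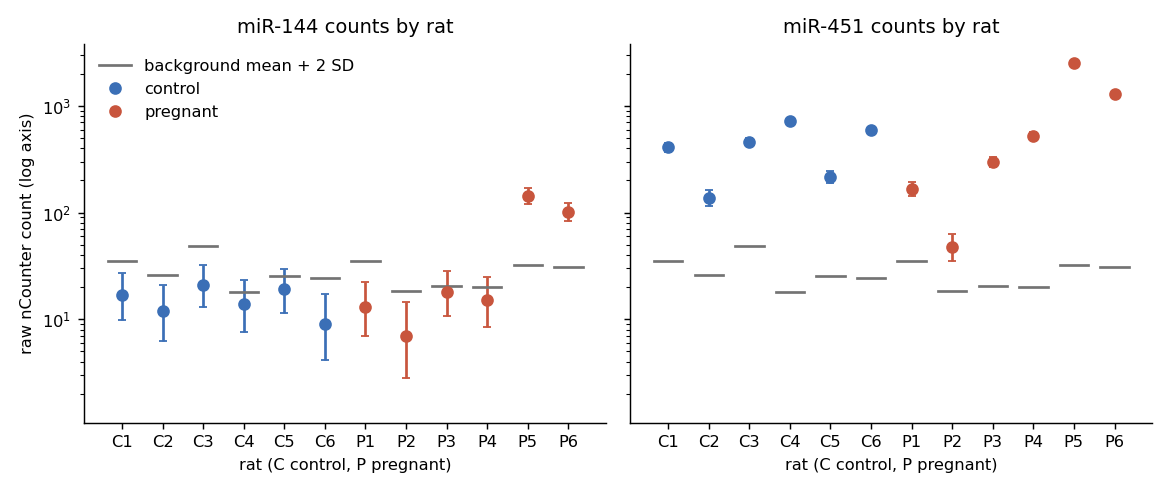
Raw nCounter counts of miR-144 (left) and miR-451 (right) on a log axis for each of the 6 control (C) and 6 pregnant (P) rats. Bars are 95% exact Poisson intervals and grey dashes the background mean + 2 SD of each rat. For miR-144, P5 and P6 alone lie above their dash, while all 12 rats do for miR-451.

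A large part of the signal of both members came from these 2 rats. Pregnant rats 5 and 6 held 62.8% of all miR-144 counts and 51.8% of all miR-451 counts. Their mean was 8.45 times that of the other 10 rats for miR-144 and 5.37 times for miR-451, against the 3.00 times of the whole endogenous sum. The index denominator miR-23a behaved alike, with 55.6% of its counts in them and 6.26 times the mean of the others. Both rats were 110 days old, an age shared by control rat 3.

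Neither member was called different between pregnant and control rats after adjustment over the probes tested. The fitted level of miR-144 was higher in pregnant plasma, and this came with pregnant rats 5 and 6, while miR-451 had no settled direction. Counts were compared with edgeR's quasi-likelihood test, scaled by TMM, a trimmed mean of ratios that aligns samples on the bulk of their probes. The test ran over the 187 endogenous probes that reached 10 counts in 6 or more rats. Both members passed this filter, miR-144 with 5 rats in each group and miR-451 with all 12. At an adjusted p under 0.05, 0 of the 187 probes were called, a background of 0%, and so neither member was called. DESeq2 and limma-voom also called 0. At an unadjusted p under 0.05, edgeR had 10 probes higher in pregnant rats, or 5.35% of those tested, and 1 lower. Among the 10 was miR-144, at an unadjusted edgeR p of 0.0216. With library size in place of TMM, 13 probes were under 0.05, 1 of them higher in pregnant rats, and the log2 fold change of miR-144 was 0.54.

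On the scale of log2 TMM CPM, which are counts scaled to a common library total, miR-144 had a mean of 11.43 ± 1.36 in pregnant rats and 10.65 ± 0.49 in controls (SD, n = 6 each). The fitted log2 fold change was 1.31 with a standard error of 0.51, and its edgeR adjusted p was 0.670. Of the 6 pregnant rats, 4 were above the control mean of TMM CPM and 2 above every control. Without pregnant rats 5 and 6, a setting chosen after the counts had been seen, the log2 fold change was -0.02, with an edgeR adjusted p of 0.970. An exact permutation test of the log2 CPM values over all 924 assignments of rats gave a difference of 0.78 at p = 0.253.

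For miR-451 the mean was 15.34 ± 1.75 log2 TMM CPM in pregnant rats and 15.28 ± 0.83 in controls (SD, n = 6 each), a difference well within the spread of either group. Its fitted log2 fold change was 0.57 with a standard error of 0.71 and an edgeR adjusted p of 0.897. The value was 0.55 with DESeq2 size factors and 0.56 with NormFinder normalisers in place of TMM. Its sign turned to -0.25 when counts were divided by library size, which moved the median of all 187 probes to -0.33, and to -0.47 without pregnant rats 5 and 6. As a share of endogenous counts, the pregnant mean was 0.876 times the control mean for miR-451 and 1.44 times for miR-144. By group medians these ratios were 0.761 and 0.909. For miR-144, pregnant rats 5 and 6 were the only pregnant rats with a share above the control mean.

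As a description over the same 12 rats, both members varied more between rats than the median probe. The SD of log2 TMM CPM was 1.31 for miR-451, at place 6 of 187 from the top, and 1.06 for miR-144, at place 21, against a median of 0.47. The index denominator miR-23a was at 1.18 and place 12, so a wide spread was not particular to the members. The SD was not compared among bright probes alone. The SD was larger in pregnant rats than in controls for both members, at 1.75 against 0.83 for miR-451 and at 1.36 against 0.49 for miR-144. A larger SD in pregnant rats was also found for 131 of the 187 probes, or 70.1%.

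The ratio of miR-144 to miR-451 within a rat needs no scaling between rats, and asks whether the pair kept one proportion. It was 0.0417, 0.0876, 0.0458, 0.0194, 0.0876 and 0.0153 in control rats 1 to 6. In pregnant rats 1 to 6 it was 0.0774, 0.146, 0.0602, 0.0288, 0.0565 and 0.0782. The highest, in pregnant rat 2, came from 7 over 48 counts, with an exact 95% interval of 0.0557 to 0.324. Values of the groups overlapped. Pregnant rats 5 and 6, where alone miR-144 was above the background mean + 2 SD, were at places 7 and 4 of 12 by raw ratio. In the other rats the numerator was not separated from background at that level.

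Pooled over the rats the ratio was 0.0527. The exact intervals of 5 rats left this value out. On the log2 scale the pregnant mean was -3.91 ± 0.76 and the control mean -4.63 ± 1.06 (SD, n = 6 each). The difference of 0.72 had a standard error of 0.53 and an exact two-sided permutation p of 0.199, or 0.299 when adjusted over the 3 ratios compared here, and 5 of 6 pregnant rats were above the control mean. The smallest p this design allows is 0.00216. Without pregnant rats 5 and 6 the difference was 0.72 as well, at an exact permutation p of 0.295. After the background mean was subtracted, with values under 1 set to 1, this order changed, with pregnant rats 6 and 5 highest at 0.0704 and 0.0519, followed by control rat 5 at 0.0435, and control rat 6 lowest at 0.00173. The log2 difference was then 1.31 at an exact permutation p of 0.134.

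The ratio of miR-451 to miR-23a was then formed from the counts, as a haemolysis index. The study's own index came from RT-qPCR, and a ratio of 2 nCounter probes stands on another scale, so the line at 5 given for that index in the methods is drawn here for orientation alone. Raw counts of miR-23a were 197, 145, 110, 152, 132 and 89 in control rats 1 to 6. They were 36, 32, 94, 184, 461 and 1005 in pregnant rats 1 to 6. The denominator itself spanned 2.21-fold among controls and 31.4-fold among pregnant rats.

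The index was 2.07, 0.945, 4.17, 4.76, 1.64 and 6.63 in control rats 1 to 6. In pregnant rats 1 to 6 it was 4.67, 1.50, 3.18, 2.83, 5.49 and 1.30. Control rat 6 and pregnant rat 5 were above 5, and the whole exact interval was above it in control rat 6 alone, at 5.30 to 8.38. In 4 other rats the interval held the value 5, among them pregnant rat 5 at 4.97 to 6.07. The intervals of 10 rats left out the pooled ratio of 2.81. When the background mean was subtracted, 3 rats were above 5, with pregnant rat 1 added at 6.56. As log2 ratios of raw counts, 0 rats were above 5.

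The groups did not separate on this index. Its log2 mean was 1.47 ± 0.84 in pregnant rats and 1.45 ± 1.07 in controls (SD, n = 6 each), a difference of 0.01 with a standard error of 0.56 and an exact permutation p of 0.978. A p of this size does not show that the groups had the same index. The difference was 0.04 with pregnant rats 5 and 6 left out. Without control rat 2 the difference was -0.29, and in the 8 rats under 200 days of age it was -0.71, at an exact permutation p of 0.314.

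Index and level did not order the rats alike. Pregnant rat 6, at place 2 of 12 by miR-451 count, was at place 11 by index and had the highest miR-23a count. Control rat 6, at place 1 by index, was at place 4 by miR-451 count and had the lowest miR-23a count among controls. Pregnant rat 5 was at place 1 by count and place 2 by index. The miR-451 count was set against the geometric mean of 5 probes chosen as most stable by NormFinder, which scores variation within and between groups. The order was that of the raw counts. It ran from 20.3 in pregnant rat 5 and 10.2 in pregnant rat 6 down to 0.579 in pregnant rat 2. The geometric mean spanned 1.79-fold over the 12 rats and the miR-451 counts 52.7-fold, so the counts largely fixed this order. The top-ranked of the 5, miR-450a, itself had a log2 fold change of 0.75 (SE 0.30, edgeR adjusted p 0.670). Among 38 candidate normalisers ranked from the most stable, miR-23a was at place 24 and miR-451 at place 31.

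With miR-144 in place of miR-451, the ratio to miR-23a ran from 0.0828 to 0.191 in controls and from 0.0815 to 0.361 in pregnant rats. The log2 difference was 0.73 with a standard error of 0.40 and an exact permutation p of 0.0931, or 0.279 adjusted over the 3 ratios, with 4 of 6 pregnant rats above the control mean. The highest value, in pregnant rat 1, was 13 over 36 counts, and its exact interval was 0.176 to 0.697. When single rats were left out, the unadjusted exact permutation p was under 0.05 without pregnant rat 4 alone. The difference was then 0.97 at an exact permutation p of 0.0238. With any other single rat left out, the exact permutation p lay between 0.0606 and 0.197. In rats under 200 days of age the difference was 0.28 at an exact permutation p of 0.571. Without pregnant rats 5 and 6 it was 0.76 at an exact permutation p of 0.110. The miR-144 probe was above the background mean + 2 SD in pregnant rats 5 and 6 alone. In the other rats the numerator was not separated from background at that level.

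**Figure D2:**
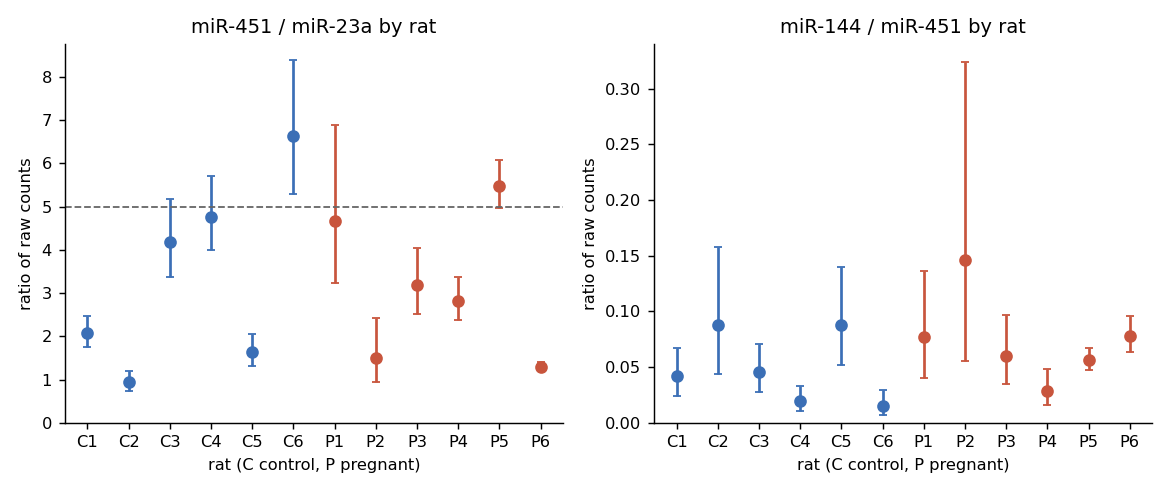
Ratio of raw counts of miR-451 to miR-23a (left) and of miR-144 to miR-451 (right) in each control (C) and pregnant (P) rat, with exact 95% intervals from the counts. The dashed line marks 5. C6 and P5 lie above it, and P6 has an index of 1.30 although its miR-451 count was 1304.

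Whether the 2 members moved together was tested across rats, as 1 relation. Over the 12 rats Pearson's r of log2 TMM CPM was 0.691 with a permutation p of 0.0148, and Spearman's rho was 0.580 with p = 0.0521. Without the 2 rats farthest from the median of miR-451, pregnant rats 2 and 5, r was 0.390 at a permutation p of 0.275, so the relation rests on rats at the ends of the range. With 1 of these 2 left out, r was 0.638 without pregnant rat 2 and 0.548 without pregnant rat 5. With pregnant rats 5 and 6 left out it was 0.418 at p = 0.228 by permutation. Among the 6 pregnant rats r was 0.910 at an exact permutation p of 0.0111, and among the 6 controls it was -0.23 at an exact p of 0.668. The difference between the 2 groups was not tested, and counts of miR-144 in controls were within counting error of each other. Scaled by library size, r was 0.435.

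**Figure D3:**
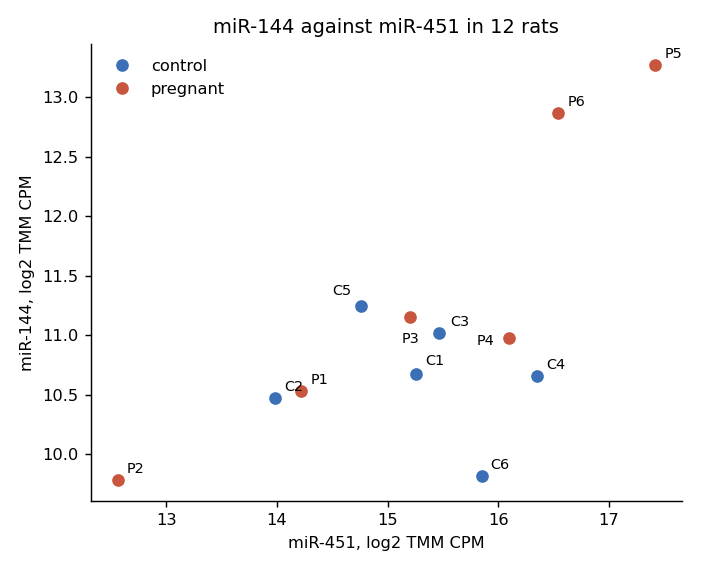
miR-144 against miR-451, both as log2 TMM CPM, with 1 point per rat labelled C for control and P for pregnant. P5 and P6 lie at the upper right, P2 at the lower left, and the controls show no rising trend, with r of -0.23 among them.

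The probes most like each member across the 12 rats were listed by Pearson's r of log2 TMM CPM, as a description over samples that share their scaling. For miR-451 they were miR-25 (r = 0.955), miR-106b (0.911), the joint probe for miR-20a and miR-20b-5p (0.909), miR-215 (0.897) and miR-191 (0.882). The first 3 come from the miR-17 gene cluster and its paralogs, whose miRNAs are also plentiful in blood cells. For miR-144 they were miR-126 (0.901), best known from endothelium and platelets, miR-30d (0.898), miR-146a (0.889), miR-21 (0.888) and miR-192 (0.869), a liver and gut miRNA.

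Neither member was the closest to its cluster partner. Among 186 other probes, miR-144 was at place 26 for miR-451, and miR-451 at place 33 for miR-144. The median r over all others was 0.01 for miR-451 and -0.06 for miR-144. Among probes with a mean of at least 50 counts it was 0.61 over 37 others for miR-451 and 0.63 over 38 for miR-144.

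Blood cell and tissue lists were set beside the members to describe the plasma. Of 14 red cell entries other than the members, 13 had a probe and 7 passed the filter. In these 7, 0 were called by edgeR after adjustment and 0 at an unadjusted p under 0.05, while 6 had a fold change above 0, as did 104 of all 187 probes and 27 of the 38 probes with a mean of at least 50 counts. Their median log2 fold change was 0.27, against 0.05 over all 187 and 0.48 over these 38. Without pregnant rats 5 and 6, 1 of the 7 was above 0, against 85 of 187, and the median was -0.30, against -0.03 over all probes.

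Among red cell probes, miR-16 had a mean of 690 counts in pregnant rats and 295 in controls, and its log2 fold change was 0.76 (SE 1.07). It was listed at 1 count in pregnant rats 1 and 2, where miR-451 had 168 and 48, and at 1787 and 1861 in pregnant rats 5 and 6. The miR-25 probe had means of 277 and 142 counts and its log2 fold change was 0.61 (SE 0.55). The probe for miR-183, a miRNA best known from sensory organs, did not pass the filter. In a fit on all 420 probes its log2 fold change was 1.68 (SE 0.43), from means of 10.2 and 2.83 counts. Its edgeR p was 0.00125 unadjusted and 0.524 adjusted. The miR-183 probe was above the background mean + 2 SD in 0 rats, with 24 and 18 counts in pregnant rats 5 and 6. The study's RT-qPCR, a separate assay, also had miR-183 higher in pregnant rats. The miR-425 probe, which did not pass either, had 1.17 (SE 0.49) there, at an edgeR p of 0.0296 unadjusted and 0.835 adjusted. In that fit 20 of the 420 probes were under 0.05 unadjusted, and no other red cell probe that failed the filter was. The miR-92a probe, for a miRNA usually bright in red cells, reached at most 5 counts in any rat.

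The summed counts of the red cell list were highest in the rats where the members were highest. They were 377 to 857 in controls and 117 to 2826 in pregnant rats, and in pregnant rats 5 and 6 their mean was 6.01 times that of the other 10. Of this sum, 1787 and 1861 counts in these rats were miR-16, and without it the ratio was 4.08. The platelet list, which also holds miR-16, was 262 to 638 in controls and 43 to 2858 in pregnant rats, with pregnant rats 5 and 6 at 7.73 times the others, or 7.07 without miR-16, although platelets had been spun out. For the white cell list, which shares miR-223 with the platelet list, the range was 254 to 750 in controls and 109 to 2647 in pregnant rats, at 5.68 times. The muscle list ran from 107 to 207 in controls and from 74 to 389 in pregnant rats, at 2.49 times, and the liver list from 143 to 2653 and from 91 to 5734, at 2.19 times. These sums follow their brightest probes. Without miR-122 the liver ratio was 5.69, with miR-192 at 6.60, and single muscle probes ranged from 1 for miR-208, at 1 count in every rat, to 4.25 for miR-499, so the ratios do not divide blood cell from tissue lists.

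The defining probes of these lists were measured to different degrees. For platelets, miR-126 was above the background mean + 2 SD in 11 rats, miR-191 in 8 and miR-223 in 3, while miR-24 stood at 1 count in all 12. For white cells, miR-150, a lymphocyte miRNA, was above it in 12 rats and miR-142-3p in 2. For liver, miR-122 was above it in 12 rats, and for muscle, miR-1 in 10 and miR-133a in 1. The part of red cells, platelets or white cells in the counts of miR-144 and miR-451 was not tested, and more released cells cannot be told apart from more miRNA per cell in plasma.

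By fold change, the 4 tested platelet probes had a median of 0.72, the 6 white cell probes 0.66, the 2 liver probes 1.33 and the 4 muscle probes -0.15. Without pregnant rats 5 and 6 these medians were -0.60, -0.32, 0.84 and -0.48. Adjusted calls by edgeR numbered 0 in each list, and at an unadjusted p under 0.05 there was 1, the liver probe miR-192 at a log2 fold change of 1.01. Of the probes that share bases 2 to 7 with miR-144-3p, miR-101b averaged 13.8 counts in pregnant rats and 7.33 in controls, a log2 fold change of 0.77 with SE 0.27 (edgeR adjusted p 0.670). The miR-101a probe did not pass the filter, at means of 8.67 and 6.67.

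**Figure D4:**
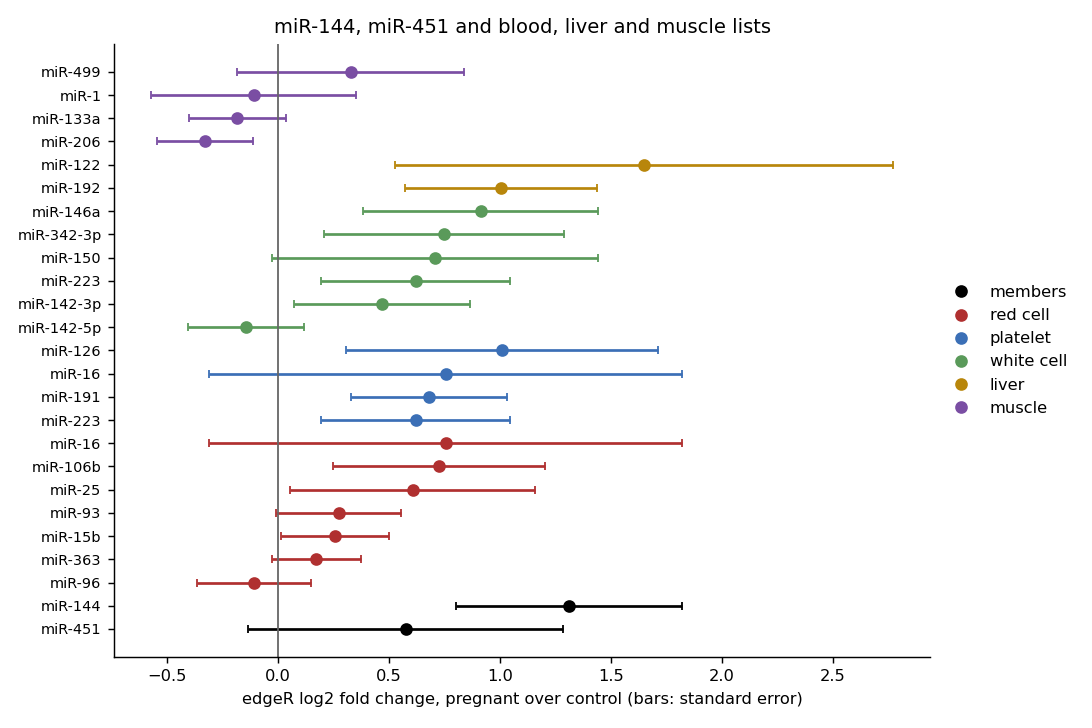
Fitted log2 fold change, pregnant over control, of miR-144, miR-451 and the tested probes of the blood cell, liver and muscle lists. Bars are standard errors. The miR-144 value of 1.31 lies to the right of every red cell probe that passed the filter, and the liver probe miR-122 lies further right at 1.65. The red cell probe miR-183 did not pass and is not shown. The miR-451 value of 0.57 lies among the blood cell probes.

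The study's 14 processing workflows combine a background step (none, subtraction or thresholding) at 3 levels with normalisation to NormFinder or to total RNA normalisers, and an approximation of them was built here. It used the stand-in background, normalisers recomputed from these counts, which are not the set the study chose, and no positive control scaling. The miR-451 ratio of pregnant to control means ran from 0.892 to 1.47 with a median of 1.24, and was above 1 in 13 of 14 workflows. Its exact permutation p was between 0.569 and 0.976. Subtraction at mean + 2 SD with total RNA normalisers was the workflow below 1, with means of 484 ± 394 in pregnant rats and 543 ± 325 in controls (SD, n = 6 each).

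The choice of workflow moved miR-144 far more. Its ratio ran from 1.26 to 19.7 with a median of 2.35 and was above 1 in all 14. Without background correction it was 2.38 with NormFinder and 1.92 with total RNA normalisers. Thresholding, which raises low values to the background, gave 1.26 to 2.31, and subtraction gave 4.16 to 19.7. After subtraction of mean + 2 SD all 6 controls were at the value of 1 set for anything lower, and after mean + 1 SD only 2 of 6 exceeded the background. The ratios of 17.8 and 10.6 at mean + 2 SD and of 19.7 and 13.1 at mean + 1 SD therefore depend on that floor and are not measured folds.

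Subtraction of mean + 1 SD with total RNA normalisers was the 1 workflow of 14 with an exact permutation p under 0.05 for miR-144. This p was 0.0195 before adjustment. Only 2 of 6 controls and 4 of 6 pregnant rats exceeded the background there, so this p also depends on the floor. With any 1 control left out, 0 workflows were under 0.05, and with any 1 pregnant rat left out, 1 or 2 were. Over all 420 probes and 14 workflows, 91 of 5880 exact permutation tests, or 1.55%, were under 0.05. Adjusted over the 420 probes of a workflow, the lowest p for miR-144 was 0.208. Without pregnant rats 5 and 6 the median ratio over workflows was 0.916 for miR-144 and 0.640 for miR-451.

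**Figure D5:**
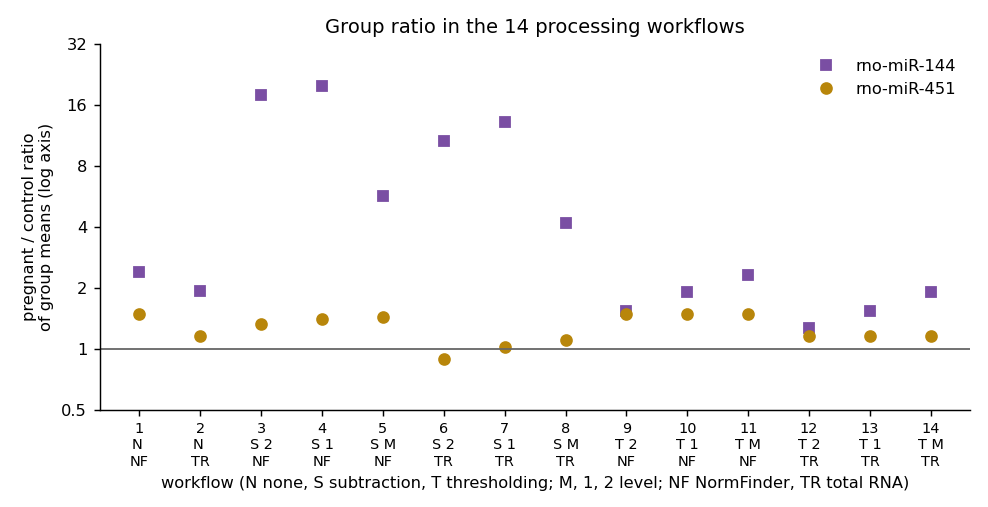
Ratio of the pregnant to the control mean of miR-144 and miR-451, on a log axis, in each of the 14 workflows. Letters give the background step and its level (M mean, 1 and 2 SD above it) and the normalisers. miR-451 stays between 0.892 and 1.47, while miR-144 reaches 19.7 under subtraction, where values of most or all controls were set to the floor of 1 at the higher levels and the ratio is no measured fold.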

How the data were processed

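The authors deposited raw nCounter counts per probe for 12 rats (Rat v1.5 codeset), with no background correction or normalisation. The smallest value was 1. Endogenous totals were 5163 to 30301 counts per rat, so that probes of about 10 counts have wide counting intervals. Groups came from the sample labels, and 0 columns of sample values were left unused. Each sample is a separate rat.

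The members, the marker lists and the tests were chosen with earlier results of these data known. Named probes were both members, miR-23a, the list members, probes sharing bases 2 to 7 with a member, and the 5 probes most correlated with each member.

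Counts were tested with edgeR 4.0.16 (glmQLFit and glmQLFTest, TMM, Benjamini-Hochberg over 187 probes) in R 4.3.3, with limma 3.58.1 and DESeq2 1.42.0 as alternatives, and checked on simulated counts. Ratios were tested by two-sided exact permutation over 924 assignments, and the correlation with 100000 permutations in scipy 1.17.1. Intervals are exact Poisson for counts and exact Clopper-Pearson for ratios, at 95%, and cover counting error only. The 14 workflows used osa-miR442, cel-miR-254, ath-miR159a and cel-miR-248 as background, with values under 1 set to 1 after subtraction. Sequences are RefSeq entries on GRCr8, and 367 of 420 probe names matched an entry. Folds were predicted with ViennaRNA 2.7.2.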

Additional observations from a re-analysis of the deposited data

How the results depend on the processing

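With 6 rats per group, 0 probes were called under any of the settings of the count model, and the adjusted p of miR-144 lay between 0.353 and 1. The log2 fold change of miR-144 turned to -0.017 without pregnant rats 5 and 6, and ranged from 0.83 to 1.43 when 1 rat was left out, lowest without pregnant rat 5. That of miR-451 turned to -0.25 with library size scaling, -0.10 with limma-voom and -0.47 without pregnant rats 5 and 6, and ranged from 0.02 to 0.84 with 1 rat left out, again lowest without pregnant rat 5. Rats that share a replicate number did not deviate together (r from -0.312 to 0.250). Whether they were handled as pairs cannot be told from these values. With the replicate block the log2 fold change was 0.90 for miR-144 and -0.0032 for miR-451. For the log2 index of miR-451 over miR-23a, the pregnant minus control difference was -0.71 in rats under 200 days and 0.70 after subtraction of mean + 2 SD. It was -0.21 as a difference of linear ratios, and the log2 difference ranged from -0.29 to 0.27 with 1 rat left out. For the log2 ratio of miR-144 to miR-23a, the group difference was 2.78 at an exact permutation p of 0.0390 after subtraction of mean + 2 SD. That step sets miR-144 to 1 in 10 rats, so this value and those of the other miR-144 ratio under it rest on the floor. The difference for miR-144 to miR-23a was 0.54 to 0.97 with 1 rat left out. The log2 difference for miR-144 to miR-451 kept its direction in every setting tried. It was 1.31 after subtraction of the background mean (exact permutation p of 0.134) and 2.08 after mean + 2 SD (exact permutation p of 0.0584). With 1 rat left out it was 0.44 to 0.96. The correlation was 0.780 on log2 raw counts, without scaling, and 0.579 after the background mean was subtracted. It fell to 0.435 with library size scaling, 0.390 without the 2 rats farthest from the median and 0.418 without pregnant rats 5 and 6. It was 0.910 among pregnant rats and -0.23 among controls. With 1 rat left out it ranged from 0.548 to 0.799, lowest without pregnant rat 5. The median workflow ratio of miR-451 was 0.964 on log2 values and 0.640 without pregnant rats 5 and 6, and 0.802 to 1.46 with 1 rat left out, and that of miR-144 was 0.916 without both rats and 1.56 to 2.72 with 1 left out. The cause of these shifts was not tested. Depth limits miR-144, which was above the background mean + 2 SD in 2 rats.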
